A study of Mus musculus with 6 samples.

Results

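The heart is tuned by receptors for noradrenaline, acetylcholine, angiotensin II and endothelin, and 9 genes for such receptors were followed in ventricles with raised miR-499. The set was Adrb1, Adrb3, Adra1a and Adra1b for the adrenergic receptors, Chrm2 for the M2 muscarinic receptor, Agtr1a and Agtr1b for the angiotensin II type 1 receptors, and Ednra and Ednrb for the endothelin receptors. The genes were chosen by name, and each was read from the brightest probe set that the array annotation pairs with that gene symbol alone. Such a probe set was found for 4 of the 9 genes, namely Adra1b, Chrm2, Agtr1a and Ednrb, out of 19938 genes with one on the array. Adrb1, Adrb3, Adra1a, Agtr1b and Ednra were not analysed here.

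All 4 measured genes lay within a small range of their WT level in the transgenic ventricles. The difference was 1.16-fold upwards for Ednrb, 1.09-fold upwards for Chrm2, 1.03-fold downwards for Agtr1a and 1.11-fold downwards for Adra1b, and none of them passed the test.

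Ventricles were taken at postnatal day 17 from 3 miR-499 transgenic mice and 3 wild-type littermates (WT), and the RNA of each mouse was hybridised to 1 Affymetrix Mouse Gene 1.0 ST array. Per the study's methods the transgenic mice were of line TG-17, in which a genomic fragment around miR-499 is driven by the Myh6 promoter of heart muscle cells, and the construct was injected into FVB/NCrl embryos. Of the lines made it expresses less miR-499 and had no clear loss of function at rest, and with a single line the microRNA and the site of insertion cannot be told apart. The sex of these animals is unknown here. Values are on a log2 scale for each probe set, so that a difference of 1 is a doubling. Whole ventricle was measured, so fewer cells of a type and less RNA per cell cannot be told apart.

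All of these receptors pass their signal to heterotrimeric G proteins. The beta1-adrenergic receptor, made from Adrb1, acts through Gs, which stimulates adenylyl cyclase, raises cAMP and strengthens the beat. The M2 receptor acts through Gi and Go, lowers cAMP and opens the acetylcholine-gated potassium channel, which slows the heart. The alpha1-adrenergic, angiotensin II type 1 and endothelin receptors couple mainly to Gq, which activates phospholipase C and protein kinase C, and this arm is known for driving growth of heart muscle cells.

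The 2 mature microRNAs of the transgene are shown because the mice were made to overexpress them. They lie on the plus strand of GRCm38.p6 at chr2:155622893-155622913 and chr2:155622929-155622951, inside a myosin gene, and are given from RefSeq with the seed, bases 2 to 8, in capitals.
mmu-miR-499-5p: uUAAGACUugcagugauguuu
mmu-miR-499-3p: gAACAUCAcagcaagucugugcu

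The probe set of Mir499 read 5.48, 5.34 and 5.68 in the WT mice and 9.31, 9.33 and 8.87 in the TG-17 mice. Every TG-17 value lay above every WT value, so the arrays bear out the genotype labels. The rise was 12.7-fold, a log2 difference of 3.67 with a standard error of 0.15 (limma, adjusted p = 0.00772).

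The groups were compared with limma on all 35556 probe sets. A probe set was called at a log odds B above 0, and the adjusted p is by Benjamini and Hochberg over the whole table. At B above 0, TG-17 was higher for 0.155% of all probe sets and lower for 0.211%, and 0.00562% had an adjusted p under 0.05. None of the 4 receptor genes passed either cut-off, with B from -5.82 for Agtr1a to -3.75 for Ednrb. At an unadjusted p under 0.05, 1 of the 4 was higher and none was lower, where 6.97% of all probe sets were higher and 8.50% were lower. Among the 19938 genes the shares were 6.65% and 8.76%. Among the 10789 genes that were brighter than a reference of genes used by other tissues they were 10.8% and 6.59%.

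That reference held 17 measured genes, such as those for pituitary hormones, cone opsins and sperm proteins, whose mean log2 values ran from 3.68 to 7.02. The means of all 4 receptor genes, from 8.30 to 11.76, lay above its upper end. This sets each signal only against that of genes not known from the heart, and a gene at or under 7.02 is called dim below. Levels are otherwise not compared between genes, because probe sets differ in how brightly they bind.

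Adra1b encodes the alpha1B-adrenergic receptor, which answers noradrenaline through Gq. Its log2 values were 8.41, 8.42 and 8.30 in the WT mice and 8.23, 8.33 and 8.11 in the TG-17 mice. The groups overlapped, since TG-17 replicate 2 lay above WT replicate 3. Mean values were 8.38 ± 0.066 for WT and 8.22 ± 0.11 for TG-17 (SD, n = 3 each). The difference in log2 value was -0.15 (standard error 0.075, adjusted p = 0.385 from limma). Its 95% confidence interval ran from -0.34 to 0.029, or from 0.792 to 1.02 of the WT level. Without TG-17 replicate 3, the lowest mouse, the log2 difference was -0.096.

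Chrm2 encodes the M2 muscarinic receptor, through which the vagus nerve slows the heart. It read 11.73, 11.64 and 11.74 in the WT mice and 11.86, 11.82 and 11.77 in the TG-17 mice. All TG-17 values lay above all WT values, by a gap of 0.035 on the log2 scale. Mean values were 11.70 ± 0.056 for WT and 11.82 ± 0.045 for TG-17 (SD, n = 3 each). The log2 difference of 0.12 (standard error 0.056) did not pass the test (adjusted p = 0.372 from limma), and the 95% confidence interval of the ratio ran from 0.988 to 1.19. After a second quantile normalization between arrays the log2 difference was 0.055, and with each array centred on its median it was 0.17.

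Agtr1a encodes the type 1A receptor of angiotensin II, the form that carries most of the effect of this peptide on blood pressure in the mouse. The values were 9.20, 9.04 and 9.11 in the WT mice and 9.10, 9.07 and 9.03 in the TG-17 mice. The TG-17 values lay within or just under the range of the WT values, and WT replicate 1 was the highest mouse. The log2 difference was -0.046 (standard error 0.060, adjusted p = 0.736 from limma) between means of 9.11 ± 0.081 and 9.07 ± 0.033 (SD, n = 3 each). The 95% confidence interval of the ratio was 0.875 to 1.07. With each array centred on its median the difference turned in sign, to 0.0047, and without WT replicate 1 it was -0.0050. Agtr1a has a close paralog, Agtr1b, and how far the probes tell the 2 apart was not tested.

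Ednrb encodes the endothelin B receptor, which in the heart is known mainly from endothelial cells, where it releases nitric oxide and clears endothelin from the blood. It read 8.54, 8.73 and 8.79 in the WT mice and 8.84, 8.87 and 9.01 in the TG-17 mice. The groups did not overlap, with a gap of 0.046 between the highest WT and the lowest TG-17 mouse. Mean values were 8.69 ± 0.13 for WT and 8.91 ± 0.088 for TG-17 (SD, n = 3 each). The log2 difference of 0.22 (standard error 0.086) had an unadjusted p of 0.0435 and an adjusted p of 0.311 from limma, and the 95% confidence interval of the ratio ran from 1.01 to 1.34. WT replicate 1 was the lowest mouse, and without it the log2 difference was 0.14.

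**Figure D1:**
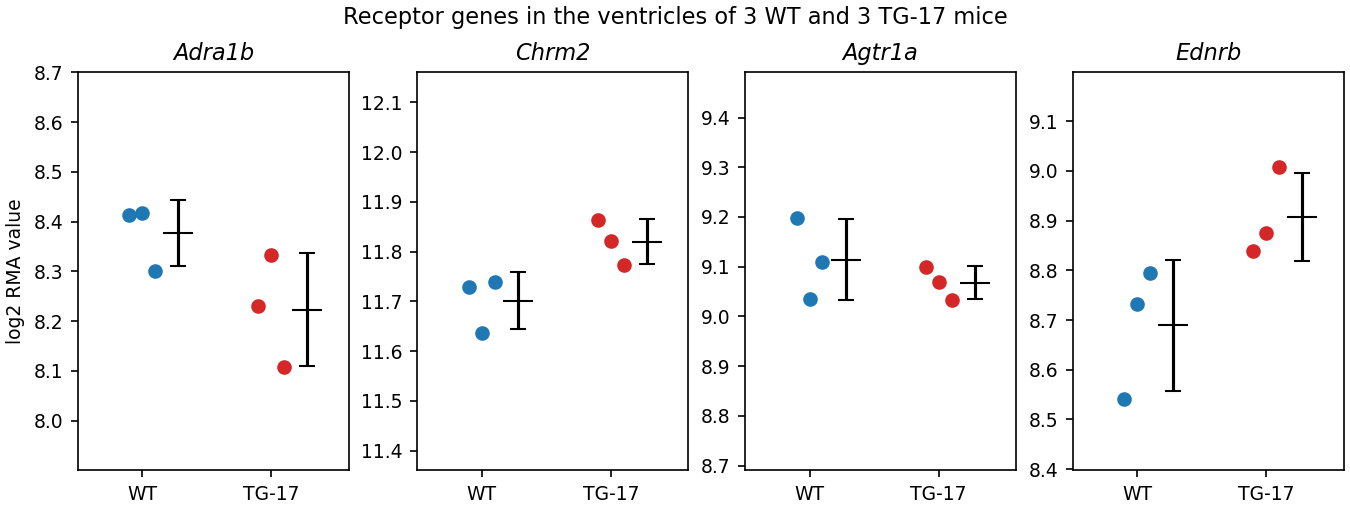
Log2 RMA values (vertical axis) of Adra1b, Chrm2, Agtr1a and Ednrb in 3 WT (blue) and 3 TG-17 (red) ventricles, 1 point per mouse, with the mean as a black bar and 1 SD as whiskers; each panel spans the same range of log2 units. The 2 groups are separate for Chrm2 and Ednrb, with TG-17 higher, and overlap for Adra1b and Agtr1a.

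The groups did not overlap for 2 of the 4 genes, both with TG-17 higher. Over all 19938 genes, 12.2% had every TG-17 mouse above every WT mouse and 13.6% had every TG-17 mouse below. The spread among mice of one group, averaged over both groups, was 0.051 for Chrm2, 0.062 for Agtr1a, 0.093 for Adra1b and 0.11 for Ednrb. Only for Chrm2, Adra1b and Ednrb was the difference between the means larger than this spread. Of all probe sets, 16.7% differed between the groups by more than Ednrb did, and for Agtr1a this share was 74.3%. The 4 confidence intervals together reached from 0.792 to 1.34 of the WT level, so they do not hold a doubling or a halving of any of these transcripts.

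The direction of Adra1b, Chrm2 and Ednrb was the same under all 16 alternative settings. With 1 mouse left out, the log2 difference was -0.21 to -0.096 for Adra1b, 0.085 to 0.14 for Chrm2, -0.086 to -0.0050 for Agtr1a and 0.14 to 0.27 for Ednrb. Ednrb kept an unadjusted p under 0.05 in 10 of the 16 settings, of which 1 was among the 6 that leave out a mouse. Chrm2 had one in 2 settings, Adra1b in 1 and Agtr1a in 0 of the 16.

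**Figure D2:**
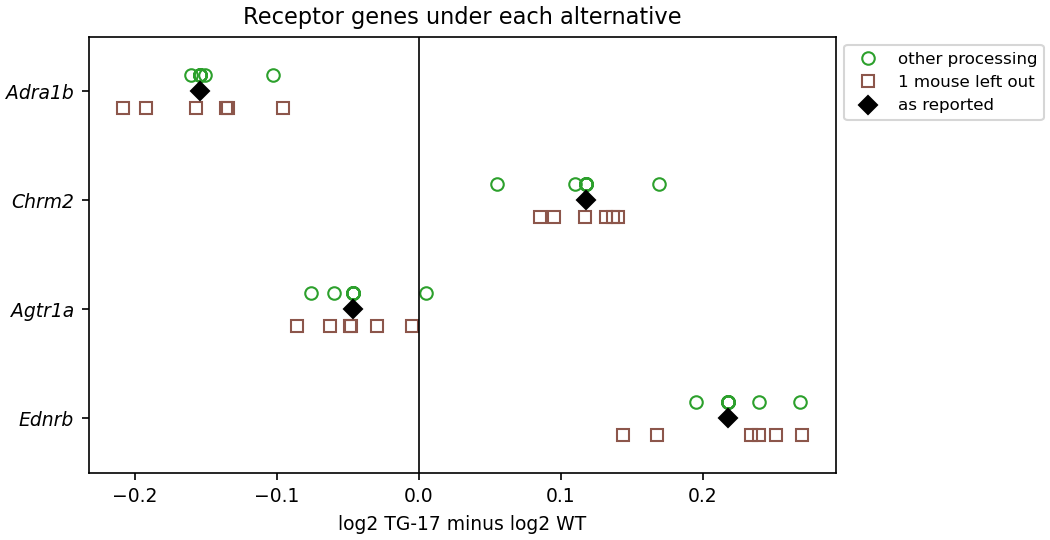
Log2 difference between TG-17 and WT (horizontal axis) of each receptor gene as reported (black diamond), under other processing (green circles) and with 1 mouse left out (brown squares). The points of Ednrb and Chrm2 stay above 0 and those of Adra1b below it, while those of Agtr1a reach from -0.086 to 0.0047.

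Ednrb stood highest in the same mice as other genes of quite different kinds. Over the 6 mice the most similar genes by Pearson's r were Abra, Fam107a and Acer2, with r of 0.994, 0.993 and 0.992. The points share arrays and fall into 2 genotypes, and 479 of the 19937 other genes had r above 0.9.

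Markers of the cell types that carry these receptors were read on the same arrays, as the mean log2 value over each list. For 8 endothelial markers, Pecam1, Cdh5 and Vwf among them, this mean was 10.42 to 10.48 in WT and 10.43 to 10.45 in TG-17, and none of the 8 had an unadjusted p under 0.05. For 8 fibroblast markers it was 11.24 to 11.28 in WT and 11.27 to 11.33 in TG-17, again with none. The 8 smooth muscle and pericyte markers read 9.61 to 9.75 in WT and 9.50 to 9.58 in TG-17, and at that p 3 of them were lower and 1 was higher, beside 8.76% and 6.65% of all genes, though none passed B above 0. Smooth muscle carries endothelin and angiotensin receptors too, and the part of this difference in the receptor values was not tested.

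M2 receptors and their channel are denser in atrial than in ventricular muscle. The 9 measured atrial markers had a mean log2 value of 8.37 to 8.47 in WT and 8.18 to 8.22 in TG-17. At an unadjusted p under 0.05, 5 of them were lower and 1 was higher, beside 8.76% and 6.65% of all genes. The myosin light chains Myl4 and Myl7 were the 2 that were lower at B above 0. Against the direction of most of that list, the potassium channel gene Kcna5 differed by 0.38 and Nr2f2 by 0.039. Beside these markers the log2 difference was 0.12 for Chrm2, 0.18 for Kcnj5 and -0.19 for Kcnj3, the last 2 encoding the channel opened by the M2 receptor, and none of the 3 passed the test. Of the 8 ventricular markers, the fetal myosin gene Myh7 was higher at B above 0, by 0.92. The other 7 differed by -0.053 to 0.12, and none of them had an unadjusted p under 0.05. For 9 markers of autonomic neurons, which bring the ligands to the heart, the mean was 6.40 to 6.45 in WT and 6.31 to 6.41 in TG-17. With an unadjusted p under 0.05, 2 of these, Chat and Stmn2, were lower and none was higher. All of the neuron markers except Hand2 and Stmn2 were dim, Chat at a mean of 5.31. The part of the atrial and neuronal markers in the receptor values was not tested.

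The partners of the receptors were read as 13 lists with 158 genes, of which 143 had a probe set of their own. At B above 0 none of the 143 was called by limma in either direction. At an unadjusted p under 0.05, 24 were higher and 11 were lower. As shares these are 16.8% and 7.69%, beside the 6.65% and 8.76% of all genes. Of the 103 partners brighter than the reference of other tissues 19.4% were higher and 4.85% lower, beside 10.8% and 6.59% of all genes of that brightness. The median log2 difference of the 143 genes was 0.011, against -0.018 over all genes. For the 103 brighter partners it was 0.041, against 0.018 over all genes of that brightness.

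**Figure D3:**
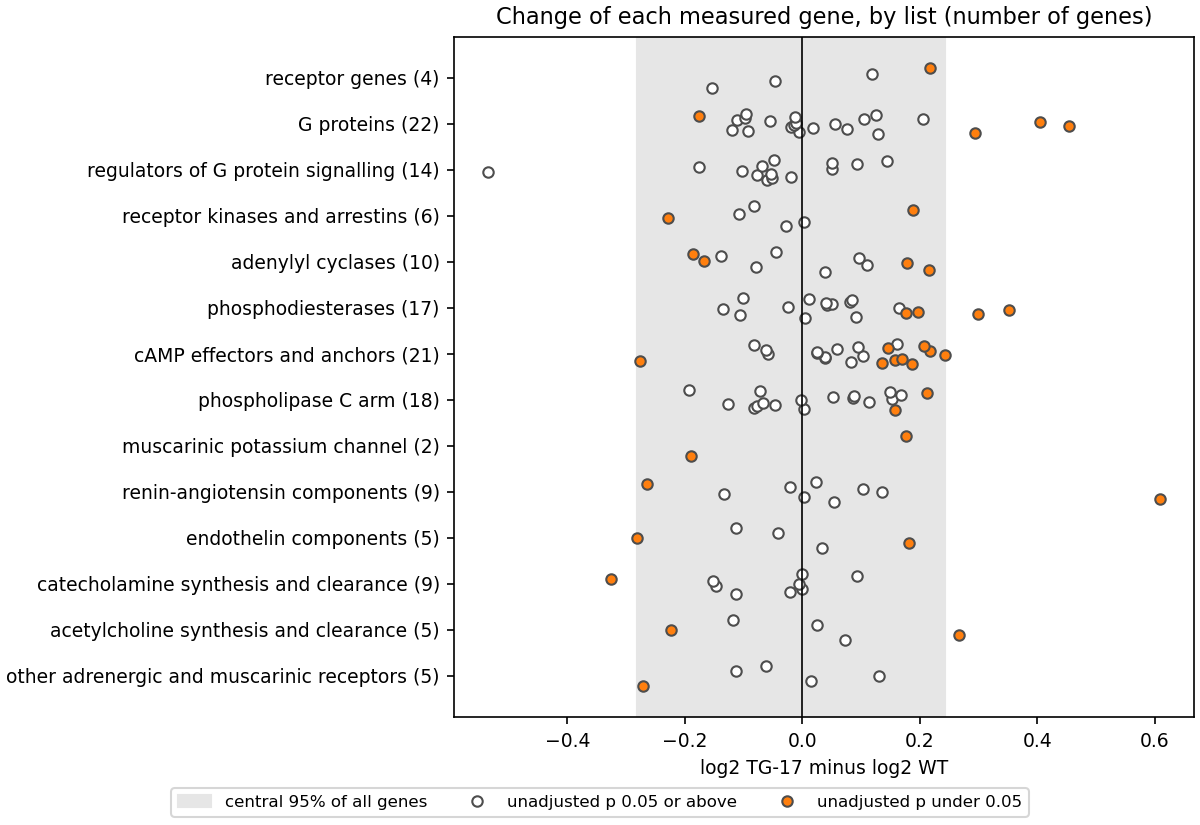
Log2 difference between TG-17 and WT (horizontal axis) for each measured gene, by list with the number of genes in brackets; filled points have an unadjusted p under 0.05 and the grey band holds the central 95% of all genes, from -0.28 to 0.24. Most points lie inside the band, and the farthest to the right is Agt at 0.61.

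Among the ligands, Agt, the precursor of angiotensin II, had the largest difference of all 143 genes. It read 7.53 to 7.85 in WT and 8.17 to 8.52 in TG-17, with no overlap. That is 1.53-fold more, a log2 difference of 0.61 with a standard error of 0.13, and it did not pass (limma, B = -1.09, adjusted p = 0.224). Mas1, a receptor linked to the counter-regulatory peptide angiotensin 1-7, was dim, at 5.98 to 6.28 in WT and 5.73 to 5.94 in TG-17. With an unadjusted p under 0.05, 1 of the 9 measured genes of this system was higher and 1 lower, beside 6.65% and 8.76% of all genes. The converting enzyme gene Ace differed by 0.053 on the log2 scale. The type 2 receptor gene Agtr2 differed by 0.0034 but was dim, at a mean of 5.11.

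Edn1, the main endothelin of the heart and a ligand of the receptor made from Ednrb, lay at 8.03 to 8.37 in WT and 7.88 to 8.02 in TG-17. Its log2 difference was -0.28 (standard error 0.097, adjusted p = 0.279 from limma), opposite in sign to that of Ednrb. Ece2, an endothelin-converting enzyme, differed by 0.18 in its brighter probe set and by -0.23 in the other, so no direction can be given for it. Ece1, the main converting enzyme, and the ligand genes Edn2 and Edn3 had unadjusted p values above 0.05. Edn2 and Edn3 were dim, at means of 6.26 and 6.68.

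The genes of the nerve endings were mostly within the dim range. Slc18a2, which loads noradrenaline into vesicles, read 5.99 to 6.11 in WT and 5.52 to 5.92 in TG-17, and Maob, which breaks down amines, differed by -0.15 with overlapping groups. None of the 9 catecholamine genes was higher and 1 was lower at an unadjusted p under 0.05, beside 6.65% and 8.76% of all genes. Chat, which makes acetylcholine, differed by -0.22 at a mean of 5.31. Bche, a cholinesterase, lay above the dim range and read 8.44 to 8.52 in WT and 8.67 to 8.86 in TG-17, a log2 difference of 0.27 (standard error 0.065, adjusted p = 0.229 from limma).

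Of 22 G protein genes, 3 were higher and 1 was lower at an unadjusted p under 0.05, beside 6.65% and 8.76% of all genes. The lower one, Gng3, was dim, at a mean of 5.45. Gnao1, the alpha subunit of Go through which the M2 receptor can act, read 8.36 to 8.52 in WT and 8.79 to 9.01 in TG-17. The difference was 1.37-fold, or 0.45 in log2 with a standard error of 0.083 (limma, B = -0.54, adjusted p = 0.221). Gnb3, a beta subunit, read 6.77 to 6.82 in WT and 7.10 to 7.39 in TG-17. It was dim too, with a mean just under the upper end of the dim range. Gna12, another alpha subunit gene, was the remaining higher one, at 0.29 (standard error 0.070, adjusted p = 0.228 from limma). The alpha subunit genes Gnaq and Gna11, which serve the Gq-coupled receptors, differed by -0.015 and 0.13. Gnai2, a Gi gene, differed by 0.076 on the log2 scale. Gnaq, Gna11 and Gnai2 all had an unadjusted p above 0.05.

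Other genes serve to turn the signal off. None of 14 genes for regulators of G protein signalling, which speed the return of G proteins to rest, had an unadjusted p under 0.05. The smallest p values were those of Rgs3 at -0.18, whose dimmer probe set differed by -0.016, and Rgs7 at 0.14. Rgs7 was dim, at a mean of 6.31. Rgs18 had the largest difference of the list, at -0.54, but was dim, at a mean of 6.18. It also varied most among mice, from 5.53 to 7.24 in WT and from 5.36 to 6.83 in TG-17. Among 6 receptor kinase and arrestin genes Grk5 differed by 0.19 (standard error 0.067) and Grk3 by -0.23 (standard error 0.054). Both kinase genes were without overlap between the groups, as were 12.2% of all genes upwards and 13.6% downwards. These kinases tag active receptors for uncoupling. The arrestin genes Arrb1 and Arrb2 differed by -0.028 and 0.0028.

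Downstream of Gs, 2 of 10 adenylyl cyclase genes were higher and 2 were lower with an unadjusted p under 0.05. Over all genes 6.65% were higher and 8.76% were lower at that p. Adcy4 read 9.21 to 9.26 in WT and 9.38 to 9.43 in TG-17, while Adcy8 was dim, at 5.05 to 5.15 and 4.89 to 4.93. The other higher gene, Adcy10, was dim too, at a mean of 4.73. Of the forms best known from heart muscle, Adcy5 differed by -0.17 and was the other lower gene, and Adcy6 differed by 0.097. Of 17 phosphodiesterase genes, whose enzymes break down cyclic nucleotides, 4 were higher and none was lower at that p. Among the higher ones Pde3b was dim, at a mean of 6.70, and Pde3a differed by 0.20. Pde1c had the largest B of all 143 genes, at -0.30. Its values were 8.98 to 9.06 in WT and 9.29 to 9.37 in TG-17, or 1.23-fold more (adjusted p = 0.220 from limma), and Pde2a differed by 0.18.

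Among 21 genes for cAMP effectors and anchors, 8 were higher and 1 was lower at an unadjusted p under 0.05, beside 6.65% and 8.76% of all genes. The median log2 difference was 0.094, against -0.018 over all genes. Most of the list lay above the dim range. Among all genes brighter than the reference, the median was 0.018, and 10.8% were higher and 6.59% lower at that p. Popdc3, a cAMP-binding membrane protein of muscle, differed by 0.22 and Akap1, an anchor of protein kinase A at mitochondria, by 0.19. Both were higher without overlap, as were 12.2% of all genes. The lower one was Akap5, another anchor of this kinase, at -0.28. In the phospholipase C arm, 2 of 18 genes were higher and none was lower at that p. They were Camk2d, the main cardiac form of calcium/calmodulin-dependent kinase II, at 0.16, and Prkd1, protein kinase D, at 0.21. The mean of Prkd1, 6.91, lay in the dim range. All of these genes stayed below B of 0.

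The potassium channel that the M2 receptor opens has subunits from Kcnj3 and Kcnj5, and these differed in opposite directions. Kcnj5 read 9.16 to 9.25 in WT and 9.31 to 9.40 in TG-17, a log2 difference of 0.18 (standard error 0.055, adjusted p = 0.263 from limma). Kcnj3 read 8.15 to 8.27 in WT and 7.98 to 8.14 in TG-17, a difference of -0.19 (standard error 0.067, adjusted p = 0.285 from limma). Of 5 other adrenergic and muscarinic receptor genes, Adra2c, an alpha2 receptor, had the smallest p, at -0.27, but its mean of 5.59 lay in the dim range. Chrm3 differed by 0.13 with overlapping groups.

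**Figure D4:**
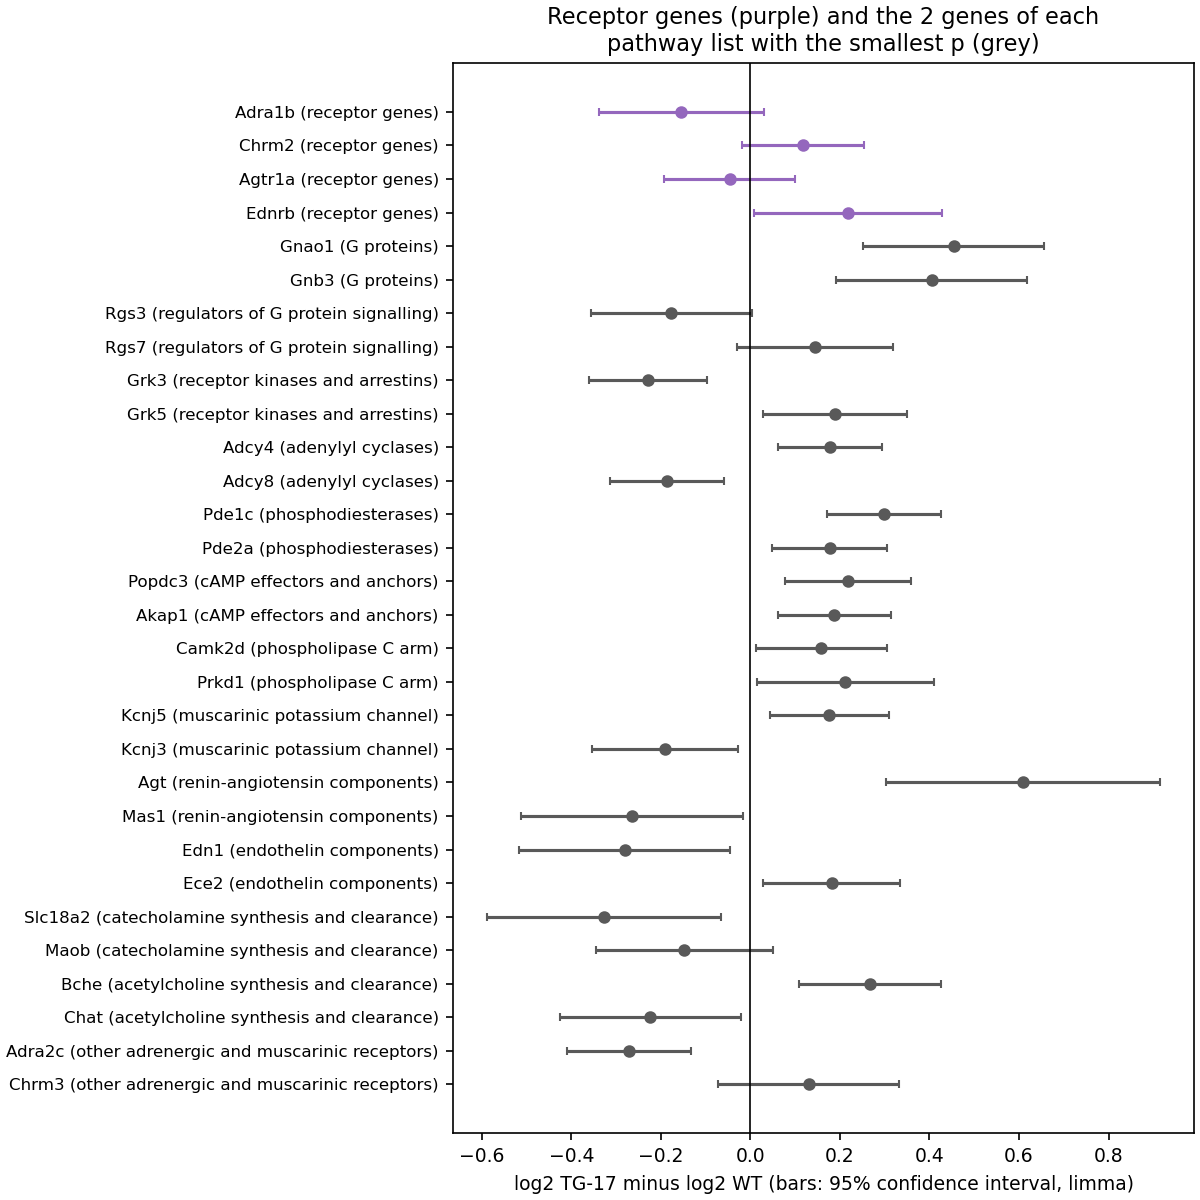
Log2 difference between TG-17 and WT with its 95% confidence interval from limma (horizontal axis) for the 4 receptor genes (purple) and the 2 genes of each partner list with the smallest p (grey). The intervals of the receptor genes lie between -0.34 and 0.43, and those of Gnao1, Gnb3 and Agt are centred at 0.45, 0.40 and 0.61.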

How the data were processed

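The authors hybridised ventricular RNA of 3 WT and 3 TG-17 mice to 1 array each and deposited log2 values made with RMA, as the submitters' processing notes name it (background correction, quantile normalization, summary of probes). Its version and filters are not stated in what was used here. The 35556 probe sets entered without further normalization, and 0 columns were left out. The platform annotation gave 21789 of them a single symbol and 1621 several, and left 12146 unnamed here. Symbols were checked by Entrez identifier against RefSeq (GRCm38.p6), and 0 changed.

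Groups came from the sample labels. TG-17 was compared with WT in limma 3.58.1 (in R 4.3.3; lmFit, then eBayes with no intensity trend and 0.01 as the share of probe sets taken to change), and the script was tested on simulated data. A gene was read from its brightest probe set. The members, partner lists and alternatives were chosen with earlier results of these data known. Named genes are the members, Mir499, the 2 genes of each partner list with the smallest p, any at B above 0, and the 3 most like Ednrb. Markers, and other genes named for their roles or levels (such as Gnaq, Adcy5, Adcy10, Akap5 and Rgs18), were named after their values were seen. Each array is a separate animal, and precision is limited by there being 3 a group.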

Additional observations from a re-analysis of the deposited data

How the results depend on the processing

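None of the 4 receptor genes passed B above 0 under any of the 16 alternatives. The number with an unadjusted p under 0.05, which was 1, was 2 with arrays centred on their median or with an intensity trend (Chrm2 and Ednrb), 0 after a second quantile normalization, and 0 to 1 with 1 mouse left out, being 0 without WT replicates 1 or 2 or TG replicates 1 or 3. The log2 difference of Agtr1a turned to 0.0047 with centred arrays, and that of Ece2 to -0.025 as the mean over its probe sets. Of the partner genes, 2 passed B above 0 upwards when only annotated probe sets were tested, without dim probe sets or with an intensity trend (Gnao1 and Pde1c), 1 with centred arrays (Pde1c), and 4 upwards and 1 downwards at an assumed share of 0.05 (Agt, Gnao1, Gnb3 and Pde1c, and Adra2c). The cause of these changes was not tested. Over all probe sets, 130 passed B above 0, against 191 without dim probe sets, 287 with the trend, 714 at the share of 0.05, 69 with the block and 29 to 112 with 1 mouse left out. With the mouse number as a replicate block 1 passed upwards (Agt). The labels do not say whether same-numbered mice are paired. Over all probe sets their deviations from the group means had r of -0.00044 to 0.057, which does not settle it. The array medians were 6.95, 6.95 and 6.93 in the WT mice and 6.91, 6.89 and 6.89 in the TG-17 mice. Every TG-17 median thus lay below every WT median. Centring removed this offset and moved the median difference of all probe sets from -0.014 to 0.037. The source of the offset was not tested, and it limits what can be read from differences as small as that of Agtr1a.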

Other observations

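Other cell types of the heart were read through marker lists. Of 8 measured genes of the conduction system, 3 were lower and 1 was higher with an unadjusted limma p under 0.05, and none passed B above 0. Over all genes 8.76% were lower and 6.65% were higher at that p, and the counts that follow, of 1 or 2 genes in short lists, are to be read beside these shares. Of 7 leukocyte genes 1 was higher and 1 was lower at that p. The 8 adipocyte markers had a mean log2 value of 7.08 to 7.10 in WT and 7.02 to 7.03 in TG-17. Of these 1, Adipoq, was lower at that p, and its mean of 5.53 was dim. The 3 measured Schwann cell markers were at 6.52 to 6.63 in WT and 6.31 to 6.46 in TG-17. Of these 2, Sox10 and S100b, were lower at that p, and S100b was dim, at a mean of 5.37. The 3 endocardial markers overlapped between the groups, at 8.20 to 8.22 in WT and 8.16 to 8.28 in TG-17. None of these lists had a member at B above 0.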
